A study of Mus musculus with 4 samples.

Results

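The replication-dependent histone genes were taken as every gene whose symbol began with Hist1h, Hist2h, Hist3h or Hist4h. The deposited matrix listed 67 of them among 32285 genes: 6 genes of linker histone H1, 18 of H2A, 18 of H2B, 12 of H3 and 13 of H4. After the filter on cells, 63 of the 67 had at least 50 summed counts and are described here, out of 17034 genes that reached this minimum. The 4 others were Hist1h2ba with 43 counts, Hist1h2bq and Hist1h4m with 3 counts each and Hist2h2aa2 with 2 counts.

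The cells were mouse embryonic stem cells of the male line E14tg2a.4, profiled one by one with a droplet method that captures transcripts at the 3′ end. There were 2 WT samples and 2 Srrm2 hKO samples, the latter from the single gene-trap line CG0630, which carries a truncation of 1 allele of Srrm2, a gene for a scaffold protein of nuclear speckles. All samples shared the parental line, LIF and serum-free medium before collection. The labels name 24 h and 72 h of growth without tying either to a sample, and the study's single-cell methods give another length. Cell barcodes carry a library number from 1 to 4 that no label links to a sample, so each value is given by library number, libraries are not treated as replicates, and WT and Srrm2 hKO were not compared.

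The filter kept 31989 of 41142 barcodes, 7464 to 8514 per library, with medians of 18378 to 21898 unique molecular identifiers (UMIs) per cell. Srrm2 was at 387, 533, 238 and 356 UMIs per 1000000 (CPM) in libraries 1 to 4. Among kept cells, 105 barcode sequences occurred in more than 1 library and covered 211 cells. Core pluripotency genes summed to 1636 to 1954 CPM in every library. Fibroblast markers summed to 2.24, 5.35, 11.6 and 6.84 CPM, and 6 keratin and contractile genes (Krt8, Krt18, Acta1, Acta2, Tagln, Cnn1) to 69.2, 49.4, 942 and 288 CPM. Library 3 therefore held the most RNA of both lists. Of the fibroblast counts, Thy1 supplied 250 of 374, 961 of 1070, 200 of 1993 and 895 of 1191 in libraries 1 to 4. Thy1 had its lowest level in library 3, where Col1a1, Col1a2 and Col3a1 had their highest. Ratios of fibroblast markers given later are of this sum, which was mostly Thy1 in libraries 1, 2 and 4.

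During S phase a cell must package its newly copied DNA, and it makes most of its H1, H2A, H2B, H3 and H4 from clustered, intronless genes that are active together with DNA synthesis. Their mRNAs usually end at a conserved stem-loop bound by SLBP and carry no poly(A) tail, whereas variants such as H3f3b are made all through the cycle as ordinary polyadenylated mRNAs. A 3′ method primed on poly(A) therefore reads mainly transcripts that were polyadenylated or that hold an internal run of A, and a level of these genes is a level of captured RNA, not of all their mRNA. Fewer transcribing cells and less RNA per cell cannot be told apart in a sum over a library.

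The 3′ ends are shown first, because they bear on what the method can capture. The stem-loop was searched on the sense strand of GENCODE vM21 transcripts (GRCm38) as GG, any 2 bases, CTTTT, any base, AG, any 2 bases and CC. It was present in 42 of the 63 described genes, against 0.329% of 21901 protein-coding genes. Among the 21 others, 10 had annotated transcripts that ran only from start to stop codon. In 25 of the 42 the letters were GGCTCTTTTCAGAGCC. These sites are from genes to which the results return, with the stem-loop in capitals, 5′ to 3′ on the transcript:
Hist1h2ap, H2A, chr13:21833026-21833049, minus strand: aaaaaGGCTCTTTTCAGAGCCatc
Hist1h2ae, H2A, chr13:23570663-23570688, minus strand: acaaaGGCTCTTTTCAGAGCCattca
Hist1h1e, H1, chr13:23621777-23621802, minus strand: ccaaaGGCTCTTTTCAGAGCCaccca
Hist1h4i, H4, chr13:22040961-22040986, minus strand: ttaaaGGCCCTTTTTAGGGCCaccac
Hist2h3c2, H3, chr3:96238480-96238505, minus strand: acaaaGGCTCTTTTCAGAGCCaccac
Hist3h2ba, H2B, chr11:58949344-58949369, plus strand: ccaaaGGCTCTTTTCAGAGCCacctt

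Hist1h2ap was the only described gene whose annotated transcript stopped within 10 bases of the stem-loop, 3 bases after it. In the other 41 matched genes an annotated transcript ran further, and in 13 of them AATAAA, the usual poly(A) signal, stood after the stem-loop. Hist1h2ae and Hist3h2ba belonged to these 13. Their signals are shown in capitals:
Hist1h2ae, chr13:23570529-23570554, minus strand: cagcttctccAATAAAtgggtcaatt
Hist3h2ba, chr11:58949497-58949522, plus strand: taatggtattAATAAAtttggttcaa
These 13 genes had a median of 1553 summed counts (393 to 95666) and the other 50 a median of 2325 (121 to 712672), so the ranges overlapped. The other 50 include the 21 genes without a stem-loop match, in which no search after a stem-loop was possible. Among those 21, Hist1h4a, Hist2h2be and Hist1h2br had AATAAA in the last 50 bases of an annotated transcript. The 50 therefore cannot be read as genes without a signal.

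Runs of A inside the transcript were the other feature. The window of 20 bases richest in A held 7 to 18 A over the 63 genes, with a median of 11. It reached 15 or more in 8 of them, against 32.4% of protein-coding genes. Longer transcripts offer more windows and length was not matched, so these shares are not on equal terms. In Hist1h2ap the richest window held 16, with an unbroken run of 12 A directly before the stem-loop. The same window stood in the near-identical Hist1h2ao. The windows of 4 genes are shown with A in capitals:
Hist1h2ap, chr13:21833045-21833064, minus strand: ccgAAAAgAAAAAAAAAAAA
Hist1h2ao, chr13:21810878-21810897, plus strand: ccgAAAAgAAAAAAAAAAAA
Hist1h1b, chr13:21780475-21780494, minus strand: AAgAAgAAgAcAAcgAAAAA
Hist1h2ae, chr13:23570684-23570703, minus strand: AAtctcgtAAAAAAAAcAAA
Hist1h2ap was counted 712672 times and Hist1h2ao 138 times. The annotated transcripts of this pair shared 403 of the 433 stretches of 50 bases that Hist1h2ap holds, and reads that fit more than 1 gene are normally not counted. Of the 63 genes, 27 had under 50% of their stretches of 50 bases to themselves within the family, so levels of single genes are uncertain where copies share reads.

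Promoters from RefSeq (GRCm38.p6, 250 bases before to 50 after the start) could be matched for 61 of the 67 genes. The octamer ATTTGCAT, a known element of H2B promoters, was found on either strand in 13 of the 61, against 1.75% of 27025 promoters. These were 7 of 18 H2A and 6 of 16 H2B promoters, and none of the H1, H3 or H4 promoters. CCAAT was present in 52 of 61 (all promoters 37.9%) and was less frequent in H4, with 3 of 12. TATAAA was present in 34 of 61 (all promoters 14.2%). Some octamers lay between an H2A and an H2B gene transcribed in opposite directions, so that the pair shared 1 site. The octamers of 1 such pair and of Hist2h2bb, with the match in capitals, read along each gene's strand:
Hist1h2ae, chr13:23571330-23571359, minus strand: atagaggttctATGCAAATaagggactcaa
Hist1h2bg, chr13:23571330-23571359, plus strand: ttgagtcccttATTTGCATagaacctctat
Hist2h2bb, chr3:96269641-96269670, plus strand: tgtgaaacctcATTTGCATacaagctctat
Hist1h2ae and Hist1h2bg, which share that site, did not vary alike between libraries. Hist1h2ae was lowest in library 1 (73.4 CPM) and highest in library 4 (238 CPM), and Hist1h2bg was at 1.76, 1.27, 1.44 and 1.56 CPM in libraries 1 to 4.

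Summed over the 67 genes, histone RNA was at 1264, 1723, 1696 and 3050 CPM in libraries 1 to 4, that is 0.126%, 0.172%, 0.170% and 0.305% of all UMIs. Library 4 was 2.41-fold above library 1 (exact 95% interval 2.40 to 2.43, counting error only, as for every interval here). The 7 S genes (Mcm2 to Mcm7 of the replicative helicase and Pcna, the sliding clamp of DNA polymerase) summed to 1374, 1471, 1286 and 1340 CPM, a 1.14-fold span with library 2 highest. The histone sum and the S genes thus ordered the libraries differently.

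The largest part of the difference between libraries was that of 1 gene. Hist1h2ap, an H2A gene, supplied 51.7% of all histone UMIs. Libraries 1 to 4 held 455, 778, 900 and 1872 CPM of it, a 4.11-fold span (4.08 to 4.15), with no 2 libraries within counting error of each other. Its share of the histone UMIs was 36.0%, 45.2%, 53.1% and 61.4%. Without it, the other 66 genes spanned 1.48-fold (1.47 to 1.49), with 795 CPM in library 3 and 1178 CPM in library 4. That span includes H1, which differed little. The core genes without Hist1h2ap were at 266, 386, 301 and 615 CPM, a 2.31-fold span, and H2A genes without it spanned 3.03-fold.

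Linker histones differed little between libraries. H1 binds the DNA between nucleosomes and compacts chromatin. The 6 H1 genes summed to 542, 559, 495 and 563 CPM, a 1.14-fold span. Hist1h1b, the second most counted gene of the family, was at 362, 363, 314 and 336 CPM. Hist1h1a was at 80.3, 60.5, 73.4 and 61.5 CPM, Hist1h1d at 41.1, 35.3, 36.6 and 40.0 CPM and Hist1h1c at 34.7, 35.0, 27.2 and 31.5 CPM. The exception was Hist1h1e, at 23.4, 64.7, 43.0 and 92.7 CPM, 3.96-fold higher in library 4 than in library 1 (3.83 to 4.10). H1 thus took 42.9% of histone UMIs in library 1 and 18.5% in library 4, and H2A 43.8% and 71.2%.

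Core histones form the octamer of the nucleosome. H2B genes summed to 46.3, 66.5, 54.8 and 91.2 CPM, H3 genes to 71.3, 80.6, 69.7 and 118 CPM and H4 genes to 49.8, 77.4, 47.0 and 107 CPM. Library 4 was highest for H2A, H2B, H3 and H4, and by 2.28-fold over library 3 for H4 (2.22 to 2.34). For H1, libraries 2 and 4 had overlapping intervals, and with size factors library 1 was highest. Among the most counted core genes, Hist1h2ae (H2A) was at 73.4, 121, 103 and 238 CPM and Hist2h2aa1 (H2A) at 3.78, 13.0, 6.30 and 24.0 CPM. Hist1h4h (H4) was at 7.97, 14.8, 10.1 and 28.6 CPM, and Hist1h4d (H4) at 26.6, 42.0, 18.1 and 46.8 CPM. Hist1h3c (H3) was at 18.2, 27.3, 17.8 and 38.3 CPM. For these 5 genes libraries 2 and 4 were both above libraries 1 and 3. Hist1h3e (H3) spanned less, at 20.5, 17.8, 17.0 and 22.5 CPM.

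**Figure D1:**
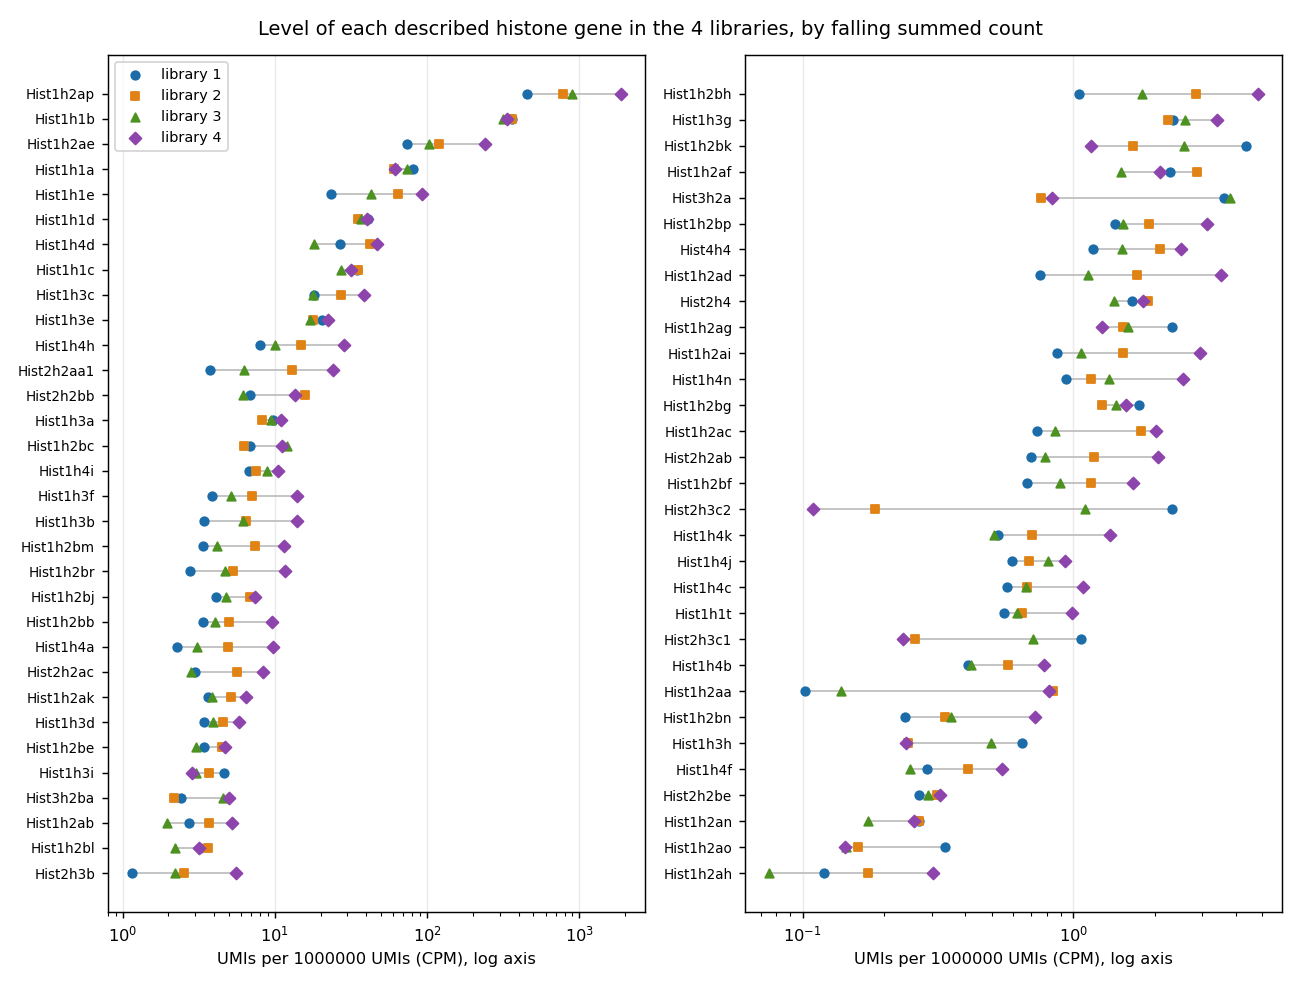
Level of each of the 63 described genes in UMIs per 1000000 UMIs (CPM, log axis) in the 4 libraries, ordered by falling summed count from the top left to the bottom right; each point is 1 library and grey lines join the lowest and highest. Hist1h2ap runs from 455 to 1872 CPM while Hist1h1b stays between 314 and 363 CPM, and Hist2h3c2 has its highest level, 2.33 CPM, in library 1 and its lowest, 0.109 CPM, in library 4.

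Counted gene by gene, 38 of the 63 differed at least 2-fold between their highest and lowest library, where 34.3% of all 17034 genes did. Without library 4 the count was 20, where 26.8% of all genes passed. The median fold was 2.46 for the histone genes and 1.62 for all genes. By class, 1 of 6 H1, 13 of 17 H2A, 10 of 16 H2B, 7 of 12 H3 and 7 of 12 H4 genes passed 2-fold. Library 4 was highest for 43 genes (33.9% of all genes). Libraries 2 and 4 were both above libraries 1 and 3 for 37 genes (38.3% of all genes), and the opposite held for 7 (23.7%). Libraries 3 and 4 were both above libraries 1 and 2 for 8 genes (19.3%), and the opposite held for 7 (11.3%).

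The widest spans included genes that ran against the family. Hist2h3c2, an H3 gene of the chromosome 3 cluster, was at 2.33, 0.185, 1.11 and 0.109 CPM, 21.3-fold higher in library 1 than in library 4 (13.5 to 35.8) on 635 counts in all. Hist3h2a, an H2A gene of the small chromosome 11 cluster, was at 3.61, 0.759, 3.79 and 0.833 CPM, a 4.99-fold span (4.17 to 5.99). For both genes libraries 1 and 3 lay above libraries 2 and 4. Hist1h2aa, an H2A gene known for a testis form, had few counts, 351 in all, and was at 0.102, 0.839, 0.139 and 0.816 CPM, an 8.24-fold span (4.99 to 14.5). Hist2h2aa1 spanned 6.36-fold (5.85 to 6.93). Hist2h3b, an H3 gene of the chromosome 3 cluster, was at 1.16, 2.55, 2.20 and 5.58 CPM, a 4.83-fold span (4.13 to 5.66). The transcripts of Hist2h3b and Hist2h3c2 shared 350 stretches of 50 bases, yet the pair ordered the libraries in opposite ways.

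As sums, the lists of genes that process or handle histone RNA and protein ordered the libraries differently from the histone sum, though with smaller spans some single genes had its order. The 15 genes of histone 3′ end processing summed to 723, 950, 784 and 935 CPM, the 11 histone chaperones to 1933, 2324, 1827 and 2133 CPM and the 11 replication-independent histone variants to 7585, 6868, 7673 and 6246 CPM. The variants as a sum were thus lowest in the library where the replication-dependent genes were highest. The order of the histone sum, lowest in library 1, then 3, 2 and 4, was that of 18.8% of all genes and of 26 of the 63 histone genes. It was shared by 7 of the 15 processing genes (Slbp, Lsm10, Zfp473, Npat, Cpsf2, Cstf2 and Sympk), by the chaperone Hira and by the variant H2afj. With size factors in place of UMI totals, libraries 2 and 3 changed places in the histone sum. Slbp, for example, was at 122, 140, 124 and 149 CPM.

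Within a library, cells differed widely. The histone sum per cell ran from 312 CPM at the 10th percentile to 2196 CPM at the 90th in library 1, a 7.05-fold range, and 10.8-, 10.98- and 11.6-fold in libraries 2 to 4. The S genes spanned 1.96- to 2.38-fold between the same percentiles. Each library therefore held cells low and high within its own range, but these ranges differed. The 90th percentile of library 1 lay below the median of library 4, 3061 CPM. When each cell was thinned to 5000 UMIs, a UMI of Hist1h2ap was found in 79.0%, 84.5%, 85.1% and 93.1% of cells in libraries 1 to 4, compared with 92.9%, 97.6%, 94.8% and 99.4% without thinning. After thinning, at least 1 UMI of H1 was found in 77.0% to 81.8% of cells, of H3 in 28.4% to 42.8%, of H4 in 21.7% to 39.2% and of H2B in 19.98% to 35.6%. No cell type free of histone RNA was at hand to set a background for these shares.

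Across the cells of a library, on a log scale of counts per 10000 UMIs, Hist1h2ap and the H1 sum had Pearson's r of 0.66, 0.78, 0.74 and 0.78 in libraries 1 to 4. The histone sum and the S genes had r of 0.23, 0.24, 0.40 and 0.26. These are descriptions over 7464 to 8514 cells that share a library and differ in depth.

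The S genes were used to ask how the histone genes stood in cells with much replication machinery. In each library, kept cells were ranked by the share of their UMIs in the 7 S genes, divided into 5 groups of equal size, and the top group was compared with the bottom group. A gene was called when each of the 4 libraries had a ratio of at least 1.5-fold, all in one direction. Of the 63 histone genes, 12 were called higher, where 0.47% of all genes were, and none lower (2.07% of all genes). For each gene the geometric mean of its ratios over the 4 libraries was also taken, and every mean ratio given here is of this kind. The median of this mean ratio was 1.35 for the histone genes and 0.998 for all genes.

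Linker histones led. The H1 sum was at 400, 397, 301 and 379 CPM in the bottom group and 756, 770, 717 and 805 CPM in the top group of libraries 1 to 4, ratios of 1.89, 1.94, 2.38 and 2.12. Each of the 5 groups was higher than the one before in all 4 libraries. Of 6 H1 genes, 5 were called higher, and Hist1h1b had the highest mean ratio among them, with 1.97, 1.98, 2.63 and 2.31. Hist1h1a had 1.84, 1.92, 2.45 and 2.07. The testis gene Hist1h1t, with 501 counts, was not called.

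Of 17 H2A genes 5 were called higher. Hist1h2ap had ratios of 1.58, 1.56, 1.84 and 1.56. Hist2h2ac had 1.84, 2.33, 2.02 and 2.09, and Hist2h2aa1 1.99, 2.02, 2.16 and 1.97. The others were Hist1h2ak and Hist1h2aa. The call of Hist1h2aa rests on few counts, 0, 17, 1 and 12 in the bottom group and 3, 47, 6 and 46 in the top group, and its ratio in library 1 has no upper bound. Among H2B and H3 genes, only Hist2h2bb and Hist1h3b were called, and no H4 gene was. Hist1h2bn had a mean ratio of 2.75 over the 4 libraries, the highest of those with a defined mean, which leaves out Hist1h2aa, but ratios of 5.0, 1.11, 3.87 and 2.67 on 294 counts. The H4 sum had ratios of 1.05, 1.22, 1.39 and 1.30, the H3 sum 1.04, 1.27, 1.47 and 1.41 and the H2B sum 1.27, 1.45, 1.2 and 1.52. As UMIs per cell, the ratios in library 1 were below 1 for H3 (0.902) and H4 (0.911).

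At the low end, Hist3h2a had ratios of 0.444, 0.689, 0.411 and 0.576 and missed the call in library 2 alone. Hist2h3c1, an H3 gene, had 0.614, 0.693, 0.986 and 0.769. Hist1h4f, with 268 counts, had 0.839, 0.755, 1.16 and 0.902 and Hist1h3h, with 285 counts, 0.853, 0.492, 1.24 and 1.38. Hist2h3c2 was at 0.282 in library 1 (0.185 to 0.417) and 0.660 in library 3 (0.387 to 1.10), the libraries where it was most counted. In library 2 it had 9 counts in the bottom and 8 in the top group, and in library 4 2 and 7 counts.

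**Figure D2:**
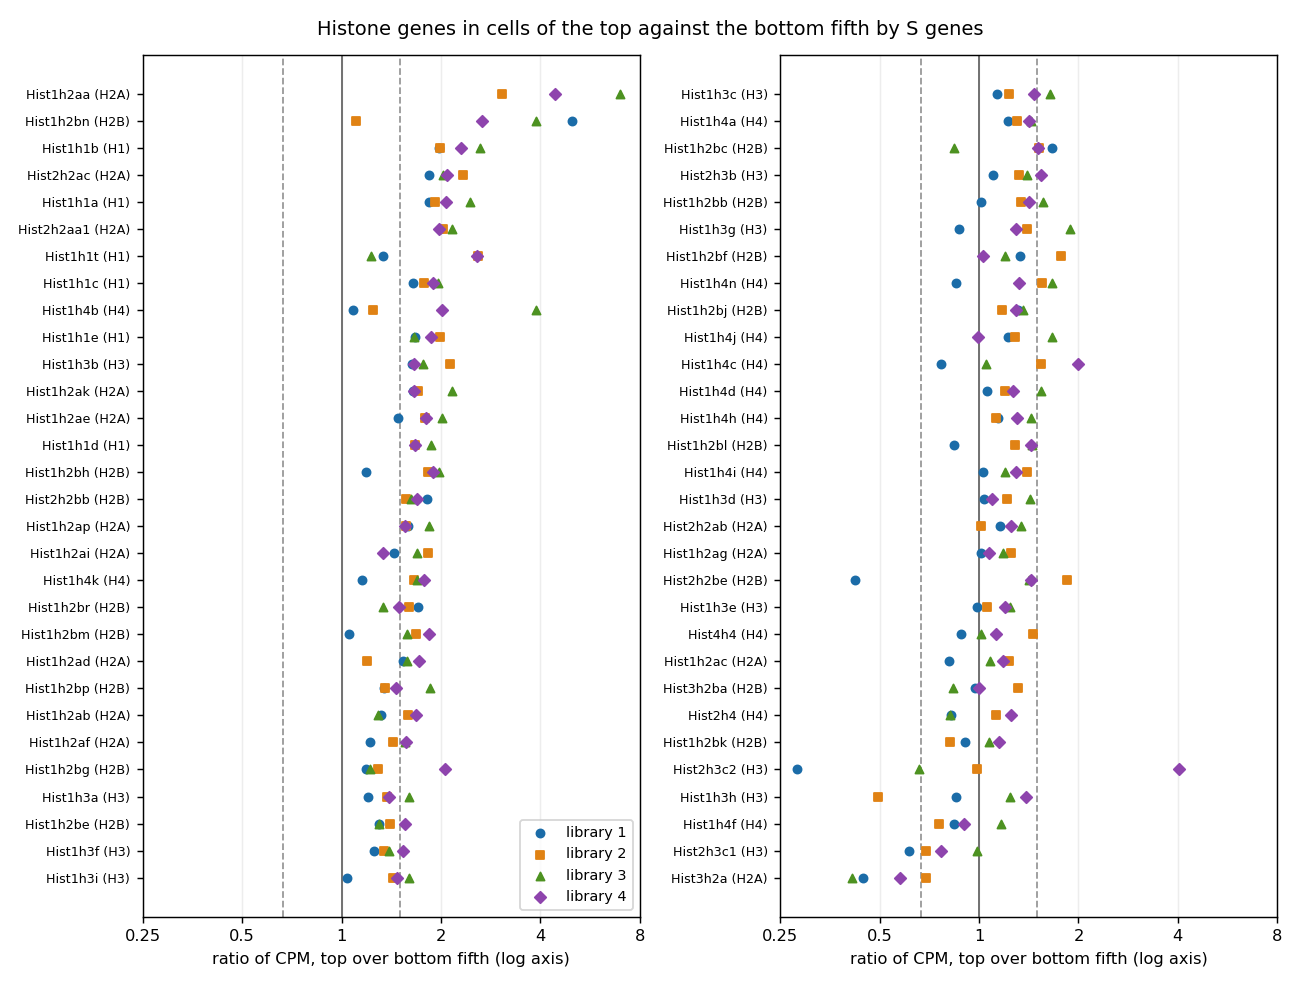
Ratio of CPM between the top and the bottom group of cells by S genes (log axis) for the 60 histone genes with at least 200 counts, 1 point per library, with class in brackets; the solid line is 1 and the dashed lines are 1.5-fold either way, and a library with 0 counts in the bottom group is left out (Hist1h2aa, library 1). The H1 genes Hist1h1a to Hist1h1e lie right of 1.5 in all libraries and Hist3h2a lies at 0.411 to 0.689.

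For Hist1h2ap the S-related difference was smaller than that between library 4 and each other library. Its span was widest between libraries 1 and 4, but libraries 1 to 3 alone also ran from 455 to 900 CPM of Hist1h2ap. In the top group it was at 578, 961 and 1159 CPM in libraries 1 to 3. These values lay below the 1452 CPM of the bottom group of library 4. The value of library 1 also lay below the bottom groups of libraries 2 and 3, at 614 and 629 CPM. For Hist1h1b the opposite held, since its ratios of 1.97 to 2.63 within libraries exceeded its 1.16-fold span between them. Depth went with the ranking: the top group had medians of 16792 to 20339 UMIs per cell and the bottom group 19132 to 22528. Ranking on cells thinned to 5000 UMIs left 3 genes called higher (0.141% of all genes), 3 groups in place of 5 left 7 (0.264%) and UMIs per cell in place of CPM left 5 (0.176%). These 5 were Hist1h1b, Hist1h1a, Hist2h2ac, Hist2h2aa1 and Hist1h2aa. Hist1h2ap was not among them, with ratios of 1.37, 1.41, 1.59 and 1.35 per cell. Keratin and contractile genes had ratios of 0.0633, 0.257, 0.0239 and 0.127 and fibroblast markers 0.344, 0.871, 0.028 and 0.509, so the bottom groups, that of library 3 above all, held more RNA of these lists. Their part in the result was not tested.

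Among genes of histone RNA processing, 1 of 15 was called higher and none lower. This was Slbp, the stem-loop binding protein, with ratios of 1.80, 1.93, 1.84 and 1.95. Casp8ap2, needed for histone gene transcription, had 1.44, 1.49, 1.76 and 1.57, and Npat, the coactivator of histone genes, 1.30, 1.29, 1.24 and 1.28, both short of the call. Of 11 chaperones, 1 was called, Chaf1a, a subunit of the factor that places H3 and H4 behind the fork, with ratios of 1.52, 1.64, 1.66 and 1.68. Nasp, which carries soluble H3 and H4, had 1.33, 1.40, 1.76 and 1.52. None of the 11 replication-independent variants was called in either direction by S genes, and their sum had ratios of 0.952 to 1.05. Of 8 further cycle genes, 2 were called higher, Ccne2 and Cdc6, both active before and at the start of S phase, and 2 lower, Nusap1 and Arl6ip1, both usual markers of G2/M. Ccne1, Rrm2, Tyms and Cenpf were not called.

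The same comparison by 14 G2/M genes (Mki67, Top2a, Cdk1, Ccnb1 and others) gave the reverse. No histone gene was called higher (1.29% of all genes) and 7 were called lower (1.76%): Hist1h2ap, Hist1h2ae, Hist1h1b, Hist1h1a, Hist1h2bc, Hist1h4i and Hist1h2aa. Hist1h2ap had ratios of 0.430, 0.330, 0.419 and 0.398 and Hist1h1b 0.562, 0.430, 0.575 and 0.473. Hist1h2bc, an H2B gene, had 0.25, 0.425, 0.237 and 0.524. The H4 sum, at 1.03, 0.776, 1.03 and 0.845, and the H3 sum, at 1.04, 0.677, 1.06 and 0.647, lay closer to 1. Of the 11 replication-independent variants, 2 were called higher in this ranking, H2afx and Cenpa, and 0 lower. Depth went with this ranking as well, with medians of 22177 to 26335 UMIs per cell in the top group and 15098 to 18620 in the bottom group. Hist2h3c2 was higher in G2/M-high cells of library 1, with a ratio of 5.20, and of library 3, with 3.11. Ranking on thinned cells left 4 called lower (1.54% of all genes), UMIs per cell in place of CPM left 1 (0.793%), and leaving out library 3 gave 12 (2.32%). Keratin and contractile genes had ratios of 0.274, 0.276, 0.158 and 0.364 in this ranking, fibroblast markers 0.417, 0.748, 0.0680 and 0.444 and the genes of the two-cell list named further on 0.108, 0.0601, 0.138 and 0.242. Their part in the result was not tested.

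To follow the family round the cycle, the cells of each library were placed in 8 equal sectors by the angle between their scores for S genes and for G2/M genes. Sector 3 holds cells with high G2/M and low S scores, and sectors 7 and 8 hold cells with low G2/M and high S scores. The histone sum was lowest in sector 3 and highest in sector 8 in all 4 libraries, at 945 and 1672 CPM in library 1, 1072 and 2405 in library 2, 1220 and 2420 in library 3 and 2007 and 4245 in library 4. In library 4 it was the highest of the libraries in every sector. Hist1h2ap was highest in sector 7 in all libraries, at 611, 1106, 1355 and 2614 CPM, closely followed by sector 8, at 603, 1085, 1306 and 2590 CPM. The S genes themselves were highest in sector 8. Depth differed between sectors. In library 1 the median was 22177 UMIs per cell in sector 3 and 15640.5 in sector 6. The histone sum of these sectors was 945 and 1406 CPM, but 22.6 and 24.1 UMIs per cell.

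H1 followed the same course. The H1 sum peaked in sector 8 in all libraries, at 766, 815, 736 and 836 CPM. Its lowest sector was 3 in libraries 1, 2 and 4 and sector 5, where both scores are low, in library 3. Of the 60 genes with at least 200 counts, 20, 24, 27 and 31 had their highest level in sector 8 in libraries 1 to 4, where 10.5%, 12.8%, 9.03% and 9.62% of the 14525 genes with that many counts did. In all 4 libraries 8 of the 60 did so (0.434% of all genes). Hist2h3c2 was highest in sector 3 in library 1, at 4.40 CPM against 0.811 in sector 6, and also in library 3, at 1.84 CPM.

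**Figure D3:**
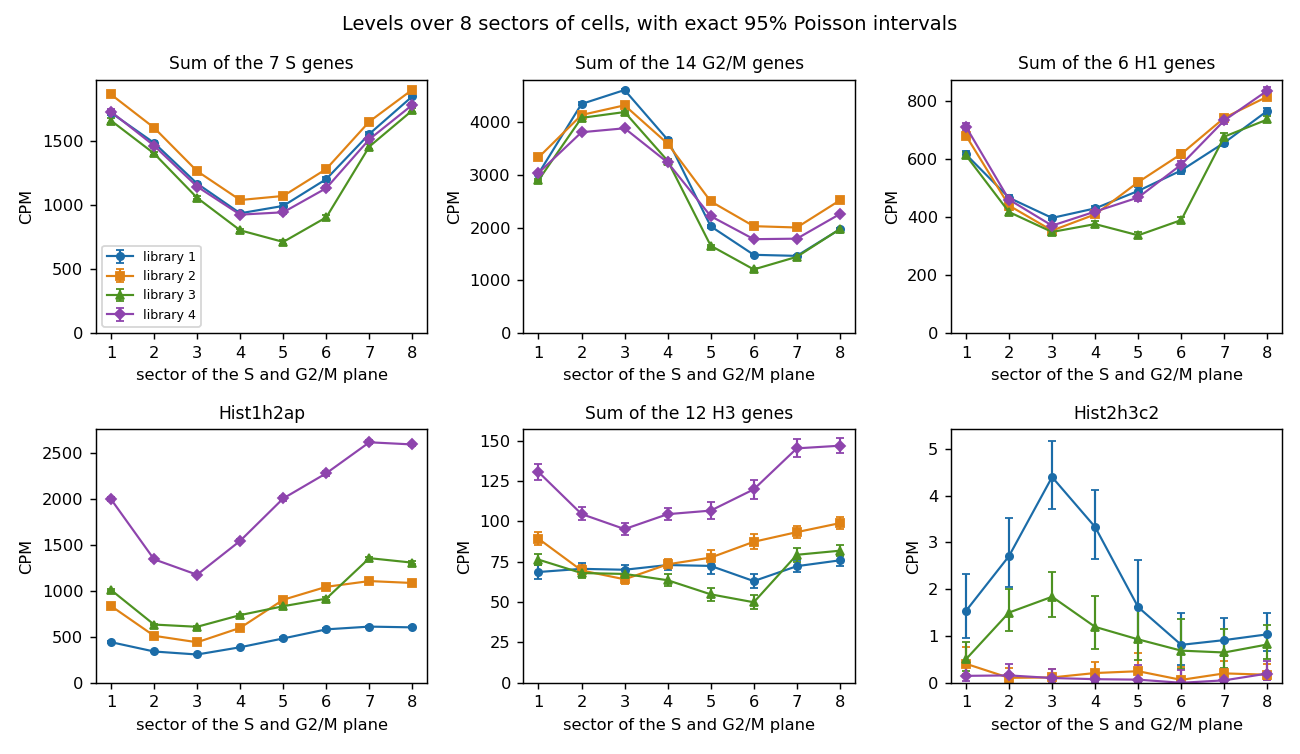
CPM of the S genes, the G2/M genes, the H1 genes, Hist1h2ap, the H3 genes and Hist2h3c2 in 8 sectors of cells ordered by S and G2/M scores, 1 line per library with exact 95% Poisson intervals; the score lists define the sectors, so their own courses are shown for orientation. H1 peaks at 736 to 836 CPM in sector 8 in all libraries, and Hist2h3c2 peaks in sector 3 of libraries 1 and 3. Hist1h2ap is highest in library 4 and lowest in library 1 in every sector.

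State was read from 10 naive genes (Nanog, Klf4, Esrrb and others) and 10 formative genes (Otx2, Fgf5, Dnmt3b and others), which mark the ground state of embryonic stem cells and the step after it. Between libraries the naive sum was 1930, 1575, 1402 and 931 CPM and the formative sum 280, 892, 484 and 1307 CPM, so library 4, highest in histone RNA, was highest in formative and lowest in naive genes. Within libraries, cells were ranked by each panel as by S genes.

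The histone family as a whole did not divide by state in a common direction. From the bottom to the top group by naive genes, the sum had ratios of 1.33, 0.961, 1.42 and 0.854, above 1 in libraries 1 and 3 and below 1 in libraries 2 and 4. By formative genes it had 0.905, 1.08, 0.818 and 1.2, with the libraries again split in these pairs, although as UMIs per cell the ratio was above 1 in libraries 1 and 3 too (1.12 and 1.11). Hist1h2ap had 0.875, 1.05, 0.800 and 1.15 by formative genes. The part of state in its span between libraries was not tested. The S genes had ratios of 1.03, 0.973, 1.25 and 1.02 by naive genes.

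A pair of genes stood apart. Hist3h2ba, an H2B gene of the chromosome 11 cluster, was called higher in formative-high cells, with ratios of 2.79, 3.74, 3.56 and 3.94, and lower in naive-high cells, with 0.327, 0.230, 0.221 and 0.186. In the top group by keratin and contractile genes against all other cells it was called higher too, with 2.58, 2.69, 2.25 and 2.05. Its S ratios were 0.970, 1.31, 0.832 and 0.997, none beyond counting error. Hist1h1e was called higher in formative-high cells, with ratios of 1.81, 2.12, 2.11 and 2.10, and had 0.667, 0.526, 0.528 and 0.559 in naive-high cells, where library 1 just missed the call. By S genes it was called higher, with 1.67, 1.99, 1.66 and 1.87. Fibroblast markers had ratios of 4.72, 4.02, 15.6 and 1.87 by formative genes and 0.205, 0.337, 0.0286 and 0.158 by naive genes. Of the 6 fibroblast markers, only Dcn and Thy1 were called higher by formative genes, and 5 were called lower by naive genes. Keratin and contractile genes had 23.5, 3.20, 12.2 and 0.476 by formative genes and 0.0253, 0.0528, 0.00821 and 0.0499 by naive genes. The part of both lists in these results was not tested.

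These were 2 of 63 genes called higher by formative genes (9.18% of all genes) and 0 lower (2.31%). By naive genes 0 were called higher (3% of all genes) and 2 lower (11.9%), the other being Hist1h2aa, with 0.168, 0.387, 0.522 and 0.485. Hist1h2aa had only 17 counts in all of library 1 and 24 in library 3, which limits this call and its G2/M call. By keratin and contractile genes 1 was called higher (8.32%) and 0 lower (0.881%). With all 4 libraries, the shares of histone genes called were below those of all genes in each state ranking. Without library 3, 7 of the 63 were called higher by formative genes (10% of all genes), about the share of all genes, and 4 lower by naive genes (12.6%). As UMIs per cell, 5 were called higher by formative genes (15.2%) and 5 lower by naive genes (14.6%), and ranking on thinned cells gave 4 higher by formative genes (8.5%).

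The other genes at the ends of the state rankings were not called, nor was Hist1h2aa by formative genes. By naive genes the highest mean ratios were 1.54 for Hist2h3c2, 1.35 for Hist1h1c and Hist1h3h, 1.33 for Hist1h4f and 1.31 for Hist1h1b, and low ones were 0.553 for Hist3h2a and 0.585 for Hist1h2bc. By formative genes, Hist1h2aa had a mean ratio of 2.71 and 1.18 in library 3, Hist1h1t 1.92 and Hist1h2bn 1.71. The lowest were 0.506 for Hist2h3c2, 0.667 for Hist2h3c1, 0.753 for Hist1h4f, 0.773 for Hist1h2bp and 0.882 for Hist1h3g. Of these 13 genes, 7 had under 1000 counts in all.

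**Figure D4:**
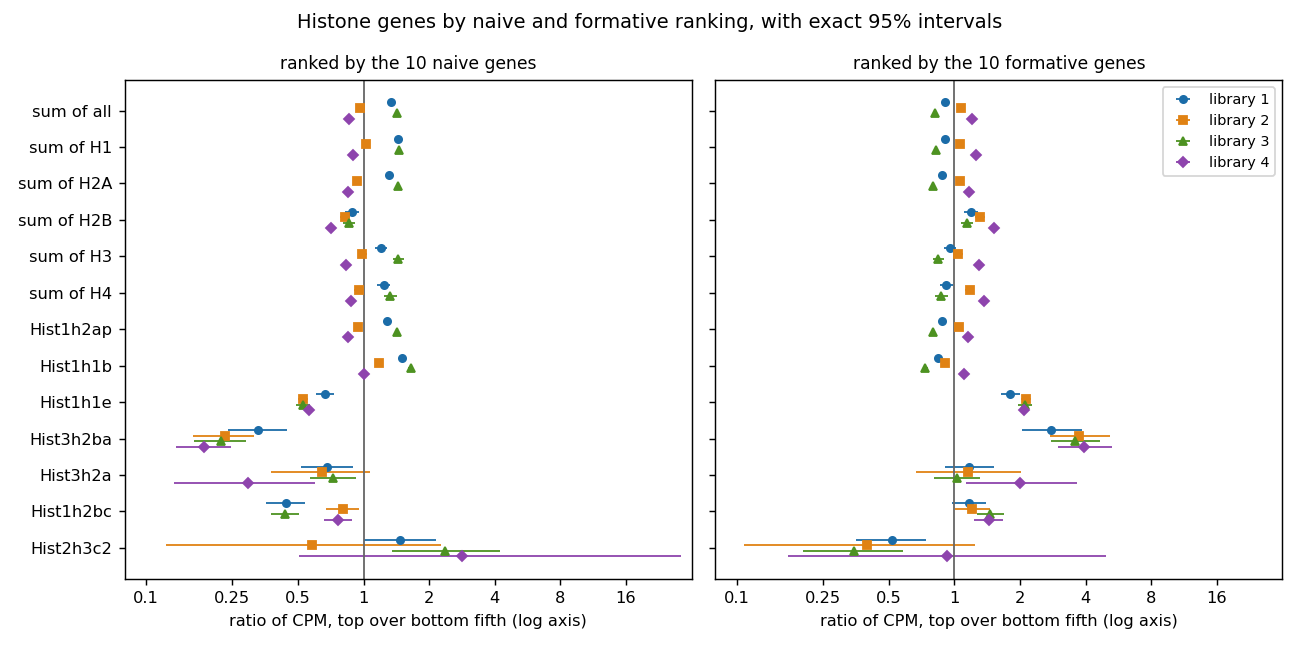
Ratio of CPM between the top and the bottom group of cells by naive genes (left) and by formative genes (right), on a log axis with exact 95% intervals, 1 point per library, for class sums and 7 genes. Hist3h2ba lies at 0.186 to 0.327 on the left and 2.79 to 3.94 on the right and Hist1h1e at 0.526 to 0.667 and 1.81 to 2.12, while the sum of all lies at 0.854 to 1.42 and at 0.818 to 1.2.

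A further state was sought in cells holding RNA of genes of the two-cell embryo (Zscan4c, Zscan4d, Zscan4f, Tcstv1, Tcstv3, Usp17lc), which a few embryonic stem cells switch on for a short time. At least 2 UMIs of this list were found in 38 kept cells, 9, 7, 18 and 4 in libraries 1 to 4, and these were compared with the other 31951. Their histone sum against other cells of the same library had ratios of 1.88 (1.68 to 2.10), 1.27 (1.10 to 1.45), 1.24 (1.15 to 1.33) and 0.759 (0.67 to 0.857), above 1 in libraries 1 to 3 and below 1 in library 4. Values pooled over libraries, given next, mix libraries that differ in histone level and in their number of such cells. H3 genes were at 307 against 84.7 CPM, a ratio of 3.62 (3.16 to 4.13), H4 genes at 203 against 70.8 CPM, 2.87 (2.42 to 3.37), and H2B genes at 174 against 64.9 CPM, 2.68 (2.24 to 3.20). For H1 and H2A the libraries did not share a direction. The H1 ratio was 1.18, 0.894, 0.847 and 0.548 in libraries 1 to 4, with intervals below 1 in libraries 3 and 4 only. The intervals count UMIs and not cells. In library 4, 3 of the 4 such cells were above the median of the other cells for H1. The H2A ratio was 1.01, 0.929, 1.10 and 0.706, with an interval below 1 in library 4 only.

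The H3 ratio was 7.66, 5.15, 3.31 and 1.72 in libraries 1 to 4, and all 4 intervals lay above 1. The H4 ratio was 6.85, 2.89, 3.73 and 1.15, of which the last, on 4 cells and 14 counts, had an interval from 0.629 to 1.93. The H2B ratio was 6.22, 2.56, 2.63 and 1.64, the last with an interval from 0.957 to 2.63. Of the 38 cells, 35 were above the median of the other cells of their library for H3, 32 for H4 and 30 for H2B. The number was 19 for the histone sum, 18 for H1, 16 for H2A and 10 for the S genes. Their median depth was 12076 to 19223 UMIs, below the library median in every library.

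Single genes were compared over the pooled libraries only. Of 18 histone genes with at least 5 counts expected, 5 were at least 2-fold higher (2.44% of 8333 genes) and none 2-fold lower (9.76%). Hist1h4i was at a ratio of 10.8 (8.33 to 13.8) on 65 counts and Hist1h3a at 7.58 (5.66 to 9.96) on 52 counts. Hist1h3c was at 4.17 (3.29 to 5.22), Hist1h2bc at 3.07 and Hist1h3e at 2.14. Hist1h4i and Hist1h3a had mean ratios of 1.22 and 1.39 in the S ranking, on either side of the family's median of 1.35. Of the genes most counted elsewhere, Hist1h2ap was at 0.944 (0.875 to 1.02), Hist1h1b at 0.581 and Hist1h2ae at 0.535.

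**Figure D5:**
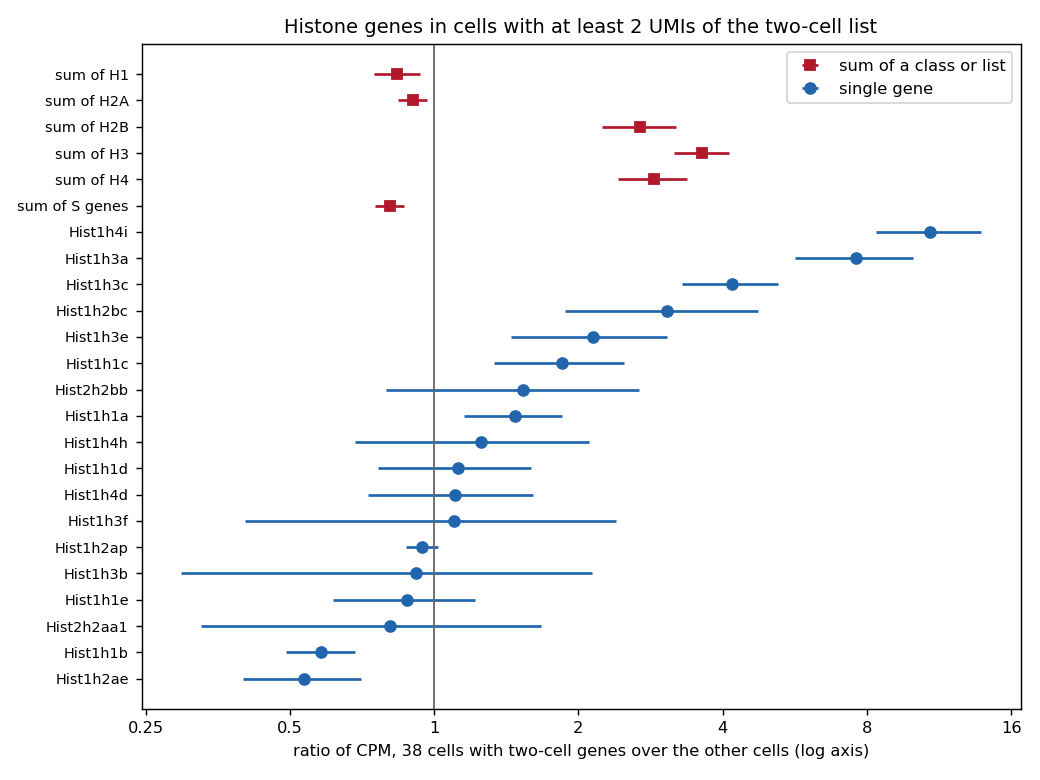
Ratio of CPM in the 38 cells with at least 2 UMIs of the two-cell list over that in the other cells, pooled over libraries (log axis), with exact 95% intervals, for the 5 class sums, the S genes and the 18 histone genes with at least 5 counts expected. H2B, H3 and H4 lie at 2.68 to 3.62 and Hist1h4i at 10.8, while H1 lies at 0.838 and H2A at 0.902, whose ratios lie on both sides of 1 among single libraries.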

How the data were processed

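Single-cell libraries of WT and Srrm2 hKO mouse embryonic stem cells were sequenced by the study on a droplet platform. The authors deposited 1 matrix of UMI counts per gene and barcode, aggregated over 4 libraries and made with Cell Ranger 6.1.2 according to the submitters' processing notes. Aggregation with default settings, as the study used it, normally subsamples reads to equal depth per cell. Such counts normally leave out reads that fit more than 1 gene.

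Cells were kept as in the study's methods, with UMIs and genes at or above the library mean minus 1 SD and at most 10% mitochondrial UMIs. The number of cells and the median of genes per cell left by this filter are not those the study states, and the reason was not tested. Doublets were not called, and leaving out cells over 2 times the median UMI count was an alternative. Counts were summed per library and given as CPM with exact Poisson intervals, and ratios had exact conditional intervals. Both cover counting error only, at 95%. A total of 3 counts in a library is 0.0150 to 0.0180 CPM. Cells are not replicates, and no p-value was computed. The planned edgeR test of Srrm2 hKO against WT was not made because no label links a library number to a sample. Only the call rules and intervals were tested on simulated counts with known folds. The simulation held no single cells, so it did not test the ranking of cells or the effect of depth.

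Genes named were the 12 with most counts and, among those with at least 200 counts, the 5 with the largest span between libraries and the 5 highest and lowest by S, naive and formative ranking. Genes named for G2/M and for the two-cell list, and the minimum of 5 expected counts there, were chosen after their values were seen, as was the search for shared stretches of 50 bases. The histone genes and the lists were chosen with earlier results of these data known.

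Transcripts were from GENCODE vM21 (GRCm38) and promoters from RefSeq (GRCm38.p6). Scripts used python 3.11.15, numpy 2.4.6, scipy 1.17.1, pandas 2.3.3 and matplotlib 3.10.9.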

Additional observations from a re-analysis of the deposited data

How the results depend on the processing

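Histone genes at least 2-fold apart between libraries numbered 38, and 20 without library 4 (26.8% of all genes). By S genes, 12 were called higher, and 3 with cells ranked after thinning to 5000 UMIs (0.141%), 7 with 3 groups of cells in place of 5 (0.264%) and 5 with UMIs per cell (0.176%). None was called lower, and 1 with UMIs per cell (3.15%) and 1 without library 2 (3.84%). By G2/M genes 7 were called lower, and 4 after thinning (1.54%), 1 with UMIs per cell (0.793%) and 12 without library 3 (2.32%). By naive genes 2 were called lower, and 1 with 3 groups (9.47%), 5 with UMIs per cell (14.6%) and 4 without library 3 (12.6%). By formative genes 2 were called higher, and 4 after thinning (8.5%), 5 with UMIs per cell (15.2%) and 7 without library 3 (10%), and 1 was called lower without library 4 (2.71%). By keratin and contractile genes 1 was called higher, and 2 without library 4 (9.75%). As UMIs per cell, the ratio of the histone sum by formative genes turned from 0.905 to 1.12 in library 1 and from 0.818 to 1.11 in library 3, and that by keratin and contractile genes from 0.897 to 1.10 in library 1 and from 0.807 to 1.02 in library 3. After thinning, the latter turned from 1.02 to 0.959 in library 4. The causes were not tested, except that leaving out a library lets a call rest on fewer libraries. The other 109 counts of calls recomputed under an alternative stayed within 1.5 times. Of the further values recomputed in this way, only 88 stayed the same, while 105 moved and 5 turned direction. No paired analysis was possible because the library numbers are not tied to labelled samples. Depth limits genes with few counts, and shared sequence limits single genes with near-identical copies.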
